A study of Homo sapiens with 18 samples.

Results

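RB1, RBL1 (p107) and RBL2 (p130) are the 3 genes of the retinoblastoma pocket protein family. They were taken by symbol from a table of 55765 gene rows, and all 3 were among the 16154 rows with a mean of at least 10 normalized counts over the 18 samples that entered the tests. The table comes from RNA sequencing of G401, an established malignant rhabdoid tumour cell line, and its values are gene counts divided by a size factor for each library. The study crossed the state of RB1 with inhibition of EZH2, the histone methyltransferase of the PRC2 complex. All cells were edited with CRISPR/Cas9: the control line, named WT in the labels, was cut at the AAVS1 safe harbour site, and E1 and F2 are 2 clones, 1 cell line each, with biallelic RB1 disruption and, per the series' design text, no RB1 protein on immunoblot. Each line received 10 µM of the EZH2 inhibitor tazemetostat or the same volume of its solvent DMSO for 11 days, with 3 libraries in each of the 6 groups. With 1 control line and 2 clones, the RB1 edit and other differences between a clone and the control line cannot be told apart, and whether the control line is itself 1 clone is not given in the sources used here.

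Pocket proteins bind E2F transcription factors and hold their target genes down outside the dividing phases of the cell cycle. RB1 mainly restrains the activating E2Fs, while RBL1 and RBL2 work with the repressive E2F4 and E2F5 and with the MuvB core in the DREAM complex, which silences cell cycle genes in resting cells. Cyclin-dependent kinases phosphorylate all family members and release E2F, and RBL1 is itself a known E2F target.

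Depth ranged from 25709489 to 39314860 reads per library. SMARCB1, the gene whose loss defines rhabdoid tumours, had 0 reads in all 18 libraries, and of the markers of other cell types HBB had 0 reads, PTPRC and CD3E had at most 2 reads, EPCAM 1 to 19, CD79A 4 to 22, CDH5 0 to 29, VWF 0 to 38 and CDH1 9 to 451. CDH1, an epithelial cadherin, had means of 256 normalized counts in WT DMSO, 353 in WT tazemetostat, 15.9 in E1 DMSO, 140 in E1 tazemetostat, 149 in F2 DMSO and 265 in F2 tazemetostat. It thus rose with tazemetostat in E1 by 3.17 on the log2 scale and its response was higher there than in WT by 2.73. VWF, an endothelial gene, had means of 1.21 to 5.24 in the DMSO groups and 24.3 to 33.7 with tazemetostat. The part of these genes in the results was not tested. The labels call the libraries biological replicates without naming separate cultures, so p-values measure the spread between these libraries, which may be partly technical. The 3 E1 DMSO libraries stood apart from each other: a chi-square of their counts over genes came to 29.7 to 61.9 per degree of freedom between pairs of them, against 2.32 to 21.4 between replicates of the other groups. In E1 DMSO replicate 2, genes with transcripts under 1000 bases had a median log2 deviation of 0.16 from the group mean, and those of 9000 bases or more one of -0.18. Every result of a member on that group is therefore given with and without replicate 2 where its call changes or its value moves by over 1.5 times. Values of single other genes are given with all libraries only.

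RB1, the targeted gene, was examined first, as a check of the labels. In DMSO, the WT libraries held 2828, 2687 and 2566 normalized counts of RB1, those of E1 658, 505 and 780, and those of F2 861, 804 and 852. With tazemetostat the values were 2517, 2606 and 2300 in WT, 939, 947 and 1045 in E1, and 945, 932 and 936 in F2. All 12 clone libraries lay below all 6 WT libraries, and RB1 transcript was reduced rather than missing, at 24.1% of the WT mean in E1 and 31.1% in F2 in DMSO, and 39.5% and 37.9% with tazemetostat. A count over the whole gene does not show which part of the transcript the edit altered. In bulk RNA, fewer cells that carry a transcript and less of it per cell cannot be told apart. Overlap between libraries is given here and below as a description, without its share over all genes.

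The log2 difference of RB1 from WT in DMSO was -2.08 ± 0.11 (SE) in E1 and -1.68 ± 0.11 in F2 (limma, Benjamini-Hochberg adjusted p of 5.69e-11 and 2.33e-09). RB1 held the 149th lowest value of 16154 genes in each of these comparisons. Genes lower at an adjusted p under 0.05 made up 11.7% of all tested genes in E1 and 12.1% in F2, and genes called in either direction 23.2% and 20.2%. The comparisons of E1 and F2 share their WT libraries. With tazemetostat the differences were -1.34 ± 0.11 in E1 and -1.40 ± 0.11 in F2 (limma adjusted p of 9.56e-09 and 5.18e-09), where 26.9% and 27.9% of all genes were lower and 51.8% and 53.1% were called in either direction.

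**Figure D1:**
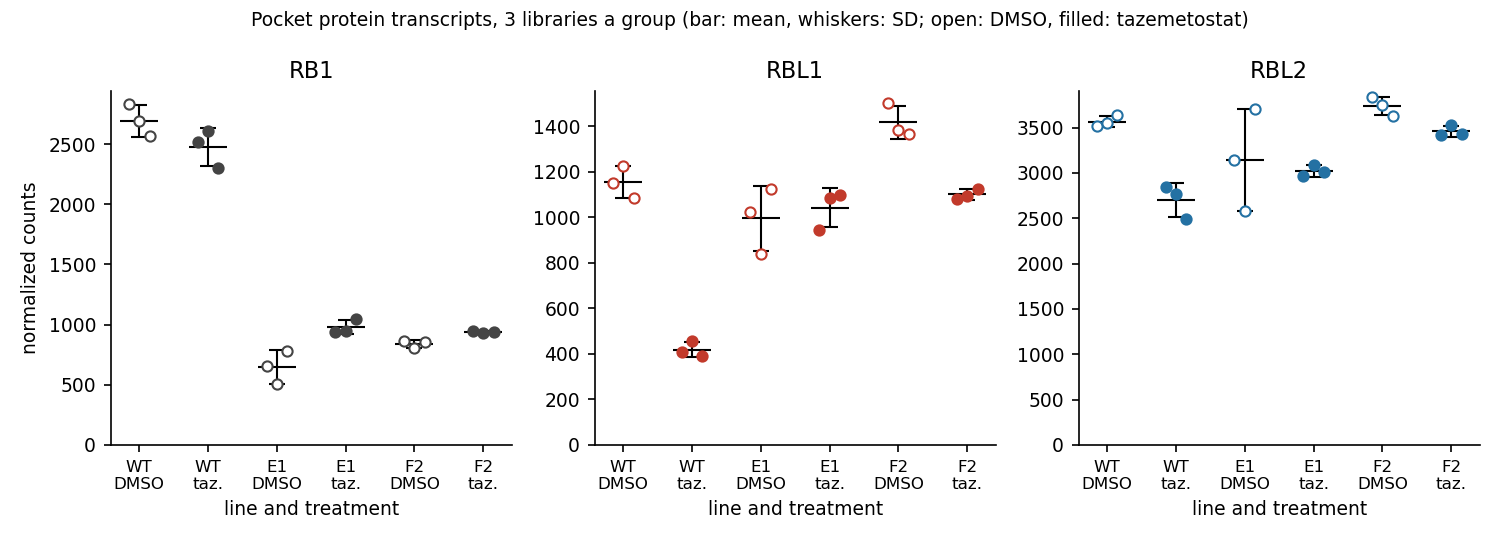
Normalized counts of RB1, RBL1 and RBL2 (vertical axes, each starting at 0) in the 6 groups of 3 libraries; points are libraries, and bars are group means with the SD. RB1 lies lower in all clone libraries than in WT, RBL1 falls from 1154 to 418 normalized counts with tazemetostat in WT, and RBL2 stays within 2489 and 3837 in all libraries.

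RB1 transcript rose with tazemetostat in E1 and did not pass the test in WT or F2. In E1 the mean went from 648 ± 138 to 977 ± 59.0 normalized counts (SD, n = 3), with no overlap between the groups, a log2 change of 0.61 ± 0.11 (limma adjusted p = 0.000106). Without E1 DMSO replicate 2, the lowest library, it was 0.44 (limma adjusted p = 0.000144). The log2 changes in WT and F2 were -0.12 ± 0.11 and 0.16 ± 0.11 (limma adjusted p of 0.326 and 0.224). With every library scaled to the same total, the WT value became -0.27 (limma adjusted p = 0.0278). The share of all genes that rose was 27.1% in E1, and 46.8% were called in either direction there. The response of RB1 differed between E1 and WT by 0.74 ± 0.15 (limma adjusted p = 0.001), a difference called for 35.4% of all genes. For F2 against WT it was 0.28 ± 0.15 (limma adjusted p = 0.183), and for E1 against F2 0.45 ± 0.15 (limma adjusted p = 0.0537). The last value was 0.28 without E1 DMSO replicate 2 (limma adjusted p = 0.0842) and 0.60 without E1 DMSO replicate 3 (limma adjusted p = 0.00165).

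In order of level, RB1 ran from WT DMSO to WT tazemetostat, E1 tazemetostat, F2 tazemetostat, F2 DMSO and E1 DMSO. The libraries of both WT groups overlapped, as did those of both tazemetostat clone groups, and the other neighbours in that order did not. In DMSO the clones differed in RB1, with a log2 difference of -0.39 ± 0.11 between E1 and F2 (limma adjusted p = 0.00736), in a comparison where 37.1% of all genes were called. That difference was -0.23 (limma adjusted p = 0.0319) without E1 DMSO replicate 2. With tazemetostat it was 0.06 ± 0.11 (limma adjusted p = 0.71), where 34.5% of all genes were called.

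Genes near RB1 on chromosome 13, named from RefSeq, were listed to set its level beside that of its surroundings. Of 9 such genes 6 were tested, and in DMSO 1 was higher and 1 lower in E1 than in WT, while in F2 none passed the limma test. Among all tested genes 11.4% were higher and 11.7% lower in E1, and 8.10% and 12.1% in F2. At an unadjusted limma p under 0.05, 1 of these neighbours passed in F2, and edgeR and DESeq2 called 0 of them there. Their median log2 differences were -0.07 and -0.06, against -0.01 for all tested genes in both comparisons. ITM2B, the gene next to RB1, differed by -0.12 in E1 and 0.09 in F2 and passed in neither. RCBTB2, on the other side, was higher in E1 by 0.27 and stood at -0.22 in F2, where it did not pass (limma adjusted p of 0.0181 and 0.0534). LPAR6, a receptor gene inside an intron of RB1, had 0 to 3 reads per library and was not tested.

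RBL1 and RBL2 differ in the sequence just before their annotated starts, which is shown as context. The part of these sequences in the members' responses to tazemetostat was not tested. The 250 bases before each start are printed 5′ to 3′ on the gene's strand, from RefSeq in build GRCh38.p14, at chr20:37095998-37096247 on the minus strand for RBL1 and chr16:53434221-53434470 on the plus strand for RBL2. Capitals mark the exact matches to E2F-like 8-base motifs.
RBL1: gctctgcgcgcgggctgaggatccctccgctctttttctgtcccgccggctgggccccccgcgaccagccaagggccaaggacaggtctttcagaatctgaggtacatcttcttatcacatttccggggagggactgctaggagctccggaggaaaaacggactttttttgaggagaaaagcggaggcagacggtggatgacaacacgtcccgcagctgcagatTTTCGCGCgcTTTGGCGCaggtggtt
RBL2: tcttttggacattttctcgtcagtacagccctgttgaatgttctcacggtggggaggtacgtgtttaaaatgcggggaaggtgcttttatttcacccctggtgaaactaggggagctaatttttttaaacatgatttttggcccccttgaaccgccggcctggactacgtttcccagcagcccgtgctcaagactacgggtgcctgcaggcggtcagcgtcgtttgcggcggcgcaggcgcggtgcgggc

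The search covered 250 bases before to 50 after each start on both strands, for the E2F-like letters TTTCCCGC, TTTGGCGC, TTTCGCGC and TTTGCCGC, for TTTGAA and TTCGAA (letters of the cell cycle homology region), for CCAAT and for GGGCGG, the GC box. RBL1 held TTTCGCGC with its first base 26 bases before the start and TTTGGCGC at 16 bases before it, without overlap between them. Of 35116 promoters of the same length in the RefSeq table, 3.31% held any of the E2F-like motifs, 0.52% held TTTCGCGC and 0.65% TTTGGCGC. RBL2 held none of the E2F-like letters in this window, but GGGCGG at 4 bases before and 7 bases after the start and TTTGAA at 24 bases after it. GGGCGG stood in 44.95% of all promoters, TTTGAA in 15.16% and CCAAT in 34.61%. The table's entry for RB1 does not lie at the annotated start of the gene and is not printed. These matches are letters in a window and were not measured as binding sites. Among the genes listed below as G1/S E2F targets, 12 of the 17 with a promoter entry held an E2F-like motif, among the G2/M genes 3 of 17, and among all 27305 genes with an entry 4.0%.

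RBL1 was the member that fell most with tazemetostat in WT. The WT libraries held 1151, 1227 and 1084 normalized counts of RBL1 in DMSO and 407, 456 and 392 with tazemetostat. In E1 the values were 1022, 840 and 1123 in DMSO and 942, 1084 and 1097 with tazemetostat. In F2 they were 1501, 1384 and 1366, and then 1081, 1095 and 1125. The groups did not overlap in WT or in F2, and they overlapped in E1. The tazemetostat mean came to 36.2% of the DMSO mean in WT, 104.6% in E1 and 77.6% in F2.

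RBL1 fell in WT by 1.46 ± 0.10 on the log2 scale (limma adjusted p = 1.33e-10), the 400th lowest value of 16154 genes. Genes that fell made up 29.4% of all tested genes, those called in either direction 64.2%, and those that fell by at least 1 on the log2 scale 6.77%. In F2 it fell by 0.36 ± 0.10 (limma adjusted p = 0.0035), where 23.2% of all genes fell and 52.2% were called in either direction. In E1 the log2 change was 0.07 ± 0.10 (limma adjusted p = 0.57), and without E1 DMSO replicate 2 it was -0.05 (limma adjusted p = 0.701), so that its sign rests on that library.

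The difference between these responses was tested itself. The response of RBL1 was higher in E1 than in WT by 1.54 ± 0.13 (limma adjusted p = 1.03e-07), the 315th highest of 16154 genes, in a comparison where 17.2% of genes were higher at an adjusted p under 0.05 and 4.79% also by at least 1. It was higher in F2 than in WT by 1.10 ± 0.13 (limma adjusted p = 7.41e-06), the 888th highest, where 13.7% of genes were higher, 4.82% also by at least 1, and 26.9% were called in either direction. E1 and F2 differed from each other by 0.44 ± 0.13 (limma adjusted p = 0.0359), where 6.16% of genes were higher, 8.60% lower and 14.8% called in all. That last difference ran from 0.32 to 0.53 when single libraries were left out and did not pass in 8 of those 12 fits, among them the one without E1 DMSO replicate 2 (limma adjusted p = 0.0746). These response differences share the WT libraries.

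**Figure D2:**
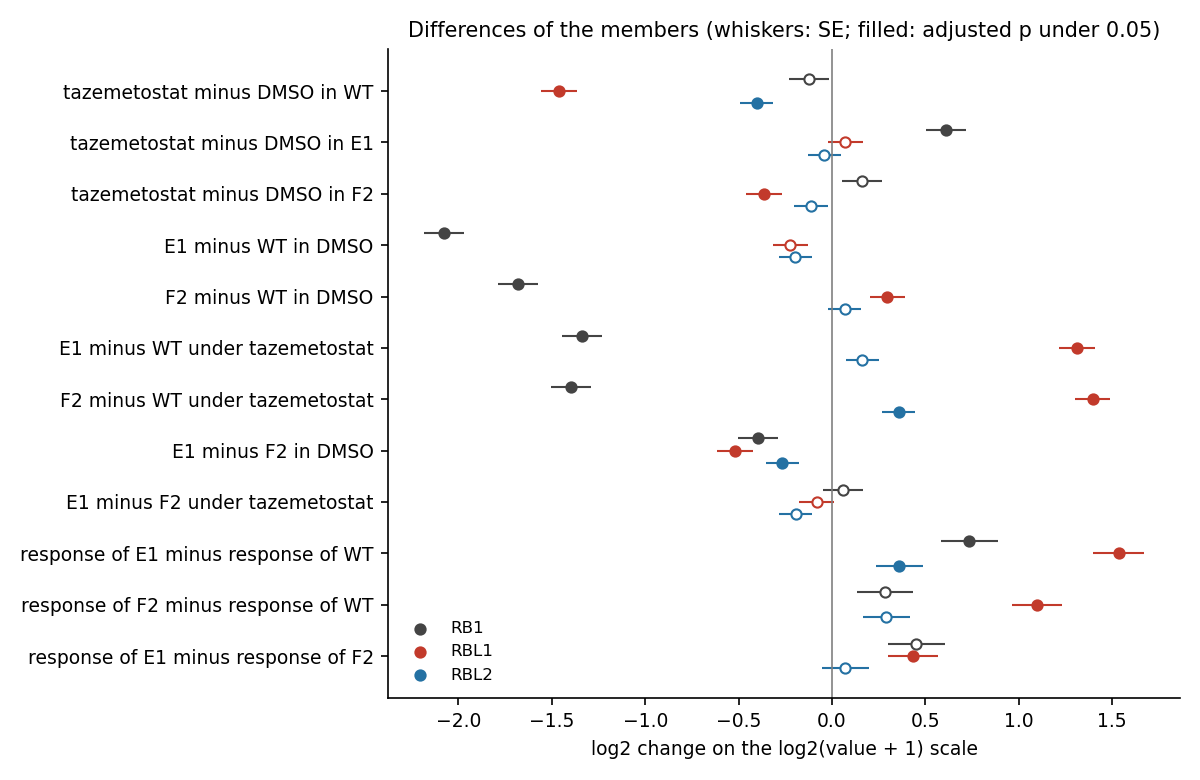
Log2 changes of RB1, RBL1 and RBL2 with tazemetostat in each line, and their log2 differences between lines, with bars of 1 SE from the limma fit. RBL1 stands at -1.46 with tazemetostat in WT and at 1.31 and 1.40 for E1 and F2 against WT under the drug, while RB1 is below 0 in all 4 comparisons of a clone with WT.

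RBL1 also differed between lines at the same treatment. Under tazemetostat its log2 level exceeded that of WT by 1.31 ± 0.10 in clone E1 and 1.40 ± 0.10 in clone F2 (limma adjusted p of 2.68e-09 and 1.08e-09), which is 248.8% and 263% of the WT mean. These were the 436th and 539th highest values, where 25.0% and 25.1% of genes were higher and 5.40% and 7.31% also by at least 1. In DMSO the log2 difference was 0.30 ± 0.10 in F2 (limma adjusted p = 0.0348, where 8.10% of genes were higher) and -0.22 ± 0.10 in E1 (limma adjusted p = 0.105). The F2 value ran from 0.25 to 0.34 when single libraries were left out, and it did not pass in 5 of those 6 fits. The E1 value was -0.11 without E1 DMSO replicate 2 (limma adjusted p = 0.43) and -0.31 without E1 DMSO replicate 3 (limma adjusted p = 0.0172). Between the clones RBL1 was lower in E1, with a log2 difference of -0.52 ± 0.10 in DMSO (limma adjusted p = 0.000303), and with tazemetostat the difference was -0.08 ± 0.10 (limma adjusted p = 0.532).

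In order of level, RBL1 was highest in F2 DMSO at 1417 ± 73.1 normalized counts (SD, n = 3), followed by WT DMSO at 1154 ± 71.4, F2 tazemetostat at 1100 ± 22.5, E1 tazemetostat at 1041 ± 85.8, E1 DMSO at 995 ± 144 and WT tazemetostat at 418 ± 33.9. Only the first and the last of these groups were clear of their neighbour in that order. The 4 groups between them each overlapped with the next.

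RBL2 is the main pocket protein of the DREAM complex in resting cells. Its WT libraries held 3513, 3552 and 3633 normalized counts in DMSO and 2845, 2770 and 2489 with tazemetostat. In E1 they held 3144, 2582 and 3704, and then 2965, 3092 and 3005. In F2 they held 3837, 3746 and 3631, and then 3414, 3533 and 3423. The groups of WT and of F2 did not overlap, though the change in F2 did not pass the limma test given below. The E1 DMSO libraries spanned the whole range of E1 tazemetostat.

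RBL2 fell with tazemetostat in WT by 0.40 ± 0.09 on the log2 scale (limma adjusted p = 0.000653), to 75.8% of its DMSO mean. This was the 3884th lowest value of 16154 genes, in a comparison where 29.4% of all genes fell. In E1 the log2 change was -0.04 ± 0.09 and in F2 -0.11 ± 0.09 (limma adjusted p of 0.731 and 0.309). The E1 value was -0.18 without E1 DMSO replicate 2 (limma adjusted p = 0.0411) and 0.08 without E1 DMSO replicate 3 (limma adjusted p = 0.359). The response in E1 was higher than in WT by 0.36 ± 0.13 (limma adjusted p = 0.0324), the 3837th highest of 16154 genes, where 17.2% were higher. Without E1 DMSO replicate 2 this difference was 0.23 (limma adjusted p = 0.0628). It did not pass in 6 of the 12 fits that left out 1 library. For F2 against WT it was 0.29 ± 0.13 (limma adjusted p = 0.0988), and 0.41 (limma adjusted p = 0.0154) with every library scaled to the same total.

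Under tazemetostat RBL2 was higher in F2 than in WT by 0.36 ± 0.09 (limma adjusted p = 0.00243), the 4111th highest value, where 25.1% of all genes were higher. The difference of 0.16 ± 0.09 in E1 did not pass (limma adjusted p = 0.134). In DMSO neither clone passed against WT, with log2 differences of -0.20 ± 0.09 in E1 and 0.07 ± 0.09 in F2 (limma adjusted p of 0.124 and 0.644). The E1 value was -0.06 without E1 DMSO replicate 2 and -0.32 without E1 DMSO replicate 3 (limma adjusted p of 0.567 and 0.00244). RBL2 was lower in E1 than in F2 in DMSO, with a log2 difference of -0.26 ± 0.09 (limma adjusted p = 0.0256), where 17.7% of all genes were lower. Without E1 DMSO replicate 2 this was -0.13 (limma adjusted p = 0.143), and it did not pass without F2 DMSO replicate 1 or 2 either. The order of its levels was F2 DMSO, WT DMSO, F2 tazemetostat, E1 DMSO, E1 tazemetostat and WT tazemetostat. Only WT tazemetostat was clear of its neighbour in that order.

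Over the 3 lines together, labels were permuted within each line in all 8000 ways for a single value per member. The mean log2 change with tazemetostat was -0.59 for RBL1 (exact permutation test, two-sided, p = 0.00925, 0.0253 adjusted over 4 values). It was -0.19 for RBL2 (exact p = 0.019, 0.0253 adjusted) and 0.22 for RB1 (exact p = 0.0415, also after adjustment), and the value of RB1 did not pass without 8 of the 18 libraries, each left out in turn. When the replicate numbers were kept as pairs, none of these exact tests passed, with adjusted p of 0.0833 for RBL1 and RBL2 and 0.105 for RB1. The mean over lines hides that the members' changes in single lines differed as given above.

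Levels of different genes can be compared only per length, so normalized counts were divided by the length of the GENCODE transcript with the longest coding part, 4793 bases for RB1, 5684 for RBL1 and 4906 for RBL2. RBL2 was the most abundant member on this scale in all 6 groups. Per coding length the order turned in WT tazemetostat, where RB1 took 49.1% of the family and RBL2 43.7%, and RBL2 led in the other 5 groups. In WT DMSO the family held 562 normalized counts per kilobase of RB1, 203 of RBL1 and 727 of RBL2. In WT with tazemetostat it held 516, 73.6 and 551.

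As a share of the family per kilobase, RB1 made up 37.7% ± 1.33 (SD, n = 3) in WT DMSO and 45.3% ± 0.574 in WT tazemetostat. In the clones its share was 14.1% ± 0.564 in E1 DMSO, 20.3% ± 0.954 in E1 tazemetostat, 14.8% ± 0.542 in F2 DMSO and 17.9% ± 0.321 in F2 tazemetostat. The share of RBL1 went from 13.6% ± 0.707 to 6.46% ± 0.34 in WT, and in the clones it lay between 17.7% and 21.0% in all 4 groups. The share of RBL2 was 48.7% and 48.3% in WT without and with the drug, and 61.4% to 67.4% in the clones. Shares are parts of a whole, so the lower RB1 of the clones by itself raises the shares of RBL1 and RBL2. The level of RBL2 against WT did not pass in DMSO, with log2 differences of -0.20 in E1 and 0.07 in F2. Under tazemetostat it passed in F2 (0.36) but not in E1 (0.16). RBL1 was the scarcest member in both WT groups and in E1 tazemetostat, at 183 normalized counts per kilobase against 204 of RB1. In F2 tazemetostat RBL1 and RB1 overlapped, at 194 and 196, and their order turned per coding length. In E1 DMSO and F2 DMSO the level of RBL1 per kilobase, at 175 and 249, stood above that of RB1, at 135 and 175.

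**Figure D3:**
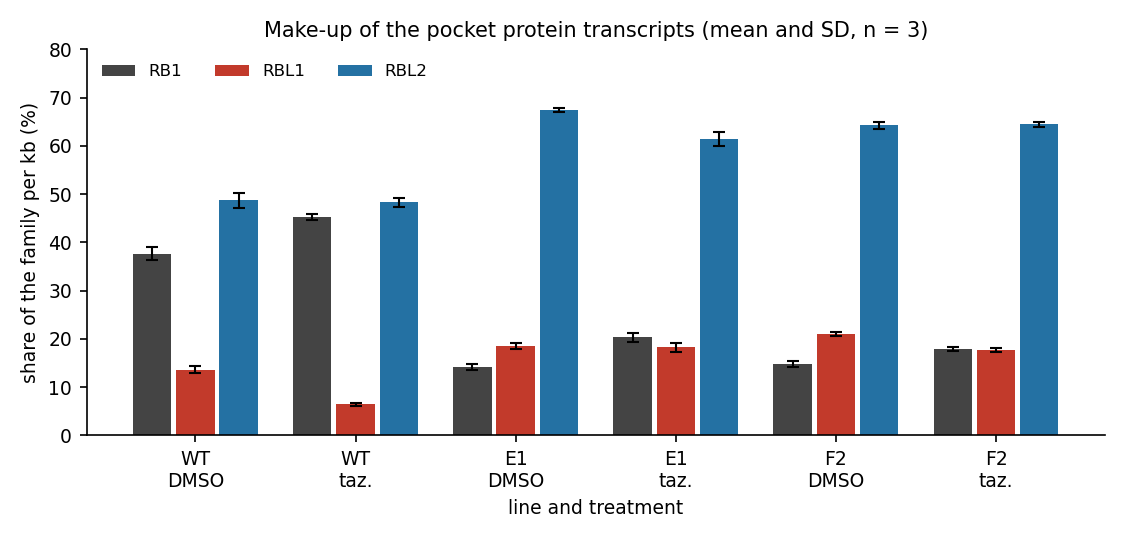
Share of RB1, RBL1 and RBL2 in the family's normalized counts per kilobase of transcript (percent, vertical axis from 0) in each of the 6 groups; bars are means of 3 libraries and whiskers the SD. The RBL1 share is smallest in WT tazemetostat at 6.46%, and the RB1 share is below 21% in all 4 clone groups.

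The family's sum per kilobase was 1492 ± 22.4 normalized counts in WT DMSO and 1140 ± 73.3 in WT tazemetostat (SD, n = 3). E1 DMSO held 951 ± 168 and E1 tazemetostat 1003 ± 31.8, and F2 held 1186 ± 35.1 and 1094 ± 12.2. RBL1 and RBL2 alone summed to 930 ± 10.7 in WT DMSO, 816 ± 139 in E1 DMSO and 1011 ± 33.0 in F2 DMSO. Under the drug their sum was lowest in WT at 624 ± 41.7, followed by E1 at 799 ± 26.0 and F2 at 898 ± 13.5.

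The ratio of RBL1 to RBL2 within a library moved by -1.06 ± 0.09 (SE, log2) with tazemetostat in WT, by -0.25 ± 0.03 in F2 and by 0.11 ± 0.07 in E1. The libraries did not overlap in WT and F2, and they did in E1. Under tazemetostat the ratio was higher than in WT by 1.15 ± 0.08 in E1 and 1.04 ± 0.06 in F2, without overlap. Exact permutation tests of 3 against 3 libraries cannot go below p = 0.1, and after adjustment over the 27 ratio comparisons the smallest was 0.123. Over the 3 lines the mean change of this ratio was -0.40 (exact permutation p = 0.0168, 0.0253 adjusted over 4 values, and 0.0833 adjusted with the replicate numbers as pairs).

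Across the 18 libraries the members' log2 levels correlated at r = 0.81 between RBL1 and RBL2, -0.48 between RB1 and RBL1 and -0.12 between RB1 and RBL2, given as descriptions. Within groups, after removal of each group's mean, r was 0.77, 0.84 and 0.88. All 3 members were low in E1 DMSO replicate 2, by log2 deviations of -0.34 for RB1, -0.23 for RBL1 and -0.27 for RBL2 from the group mean, and high in replicate 3, by 0.29, 0.18 and 0.25. Without the 3 E1 DMSO libraries the within-group r over 15 libraries was 0.41, 0.64 and 0.34. The members share a transcript length class, 4500 to 6000 bases, whose median deviation in E1 DMSO replicate 2 was -0.09. The part of transcript length in the members' spread was not tested beyond the centring by length given in the closing section.

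**Figure D4:**
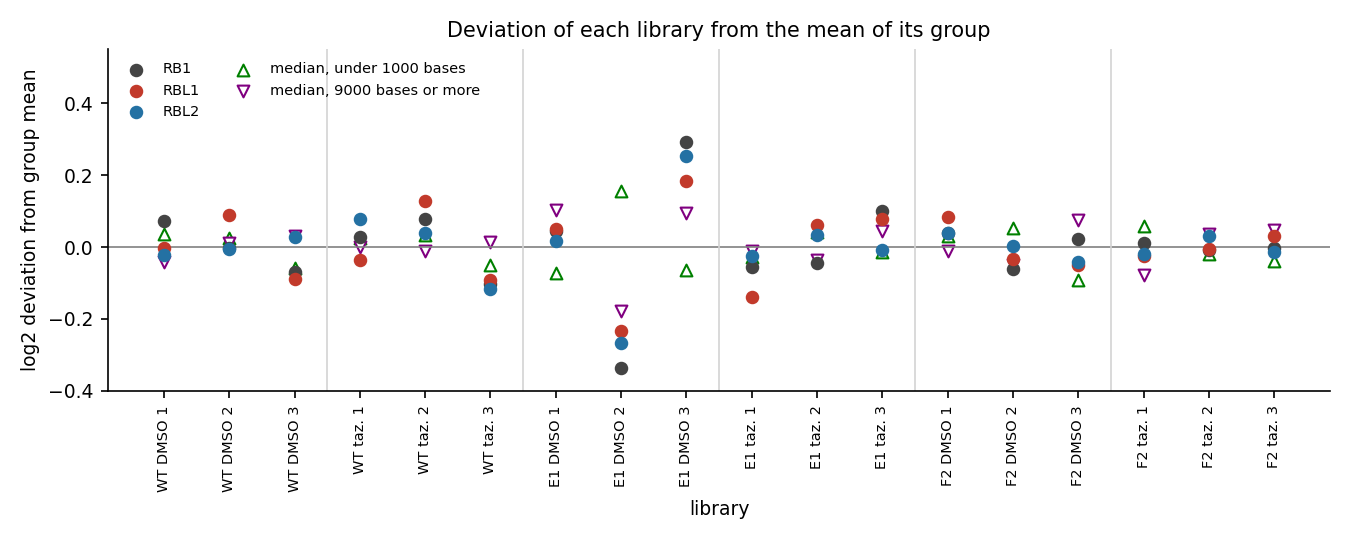
Log2 deviation of each library from its group mean, for RB1, RBL1, RBL2 and for the median of genes with transcripts under 1000 bases and of 9000 bases or more (triangles). The 3 members lie lowest in E1 DMSO replicate 2, between -0.34 and -0.23, while the median of genes under 1000 bases is 0.16 there.

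The genes whose log2 levels followed each member most closely over the 18 libraries were taken among 12983 genes with a mean of at least 50. They were chosen by their levels in these same libraries. Their differences between groups therefore follow in part from that choice and give no separate support. For RBL1 these were KIF20B, SMC4, POLA1, NCAPG2 and TMPO, with r between 0.987 and 0.993. KIF20B is a mitotic kinesin, SMC4 and NCAPG2 are condensin subunits, POLA1 is the catalytic subunit of DNA polymerase alpha, and TMPO encodes the lamina-associated polypeptide 2. Their log2 changes with tazemetostat ran from -1.67 to -1.21 in WT, from -0.06 to -0.01 in E1 and from -0.48 to -0.17 in F2. Of the promoter entries of these 5 genes, only that of POLA1 held an E2F-like motif.

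For RBL2 the closest genes were KIAA1551, ZBED5, CDK5RAP2, DYRK1A and FTO, with r between 0.930 and 0.940. DYRK1A is the kinase that starts assembly of the DREAM complex, and FTO, an RNA demethylase, is a neighbour of RBL2 on chromosome 16. In WT these genes fell with tazemetostat by 0.33 to 0.58 on the log2 scale. For RB1 the closest were ZNF141, a zinc finger gene, at r = 0.923 and LIN28B, which encodes an RNA-binding protein, at 0.883, followed by SCFD1, PSMD1 and TMEM39A at 0.873 to 0.874. These genes were picked by their correlation with RB1, and the p-values given for them do not allow for that choice. ZNF141 had 247 ± 36.3 normalized counts in WT DMSO, 37.3 ± 8.18 in E1 DMSO and 36.0 ± 10.2 in F2 DMSO (SD, n = 3), log2 differences of -2.71 and -2.77 (limma adjusted p of 3.63e-08 and 5.19e-08). LIN28B had 253 ± 9.19, 1.57 ± 0.527 and 24.7 ± 5.32 in the same groups. LIN28B also rose with tazemetostat in E1 (limma adjusted p = 4.83e-12), and no fold is given because few reads set its level of 1.57 in E1 DMSO. The log2 difference of SCFD1 from WT in DMSO was -0.26 in E1 (limma adjusted p = 0.00569) and -0.17 in F2, which did not pass (limma adjusted p = 0.0609).

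The partners and regulators of the family were described by lists, each beside the values of all tested genes, whose median log2 change with tazemetostat was 0.03 in WT and 0.02 in E1 and F2. Of all tested genes 34.8% rose and 29.4% fell in WT, 27.1% and 19.7% in E1, and 29.0% and 23.2% in F2. Of the 10 E2F and DP genes, 7 fell and 1 rose in WT, 4 fell and 3 rose in E1, and 5 fell and 2 rose in F2, with medians of -0.40, -0.01 and -0.21. E2F1, an activating E2F, fell in all 3 lines, by 0.64, 0.21 and 0.30 in WT, E1 and F2. E2F4, the main partner of RBL1 and RBL2, had log2 changes of -0.03, 0.07 and -0.09 and passed in none. The atypical repressors went opposite ways: E2F8 changed by -2.38, -0.36 and -0.89, and E2F7 rose by 0.31, 0.85 and 2.56. The rise of E2F7 was larger than in WT by 0.54 in E1 and 2.25 in F2 (limma adjusted p of 0.001885 and 5.82e-10). In DMSO E2F7 was already higher in E1 than in WT, by 1.215 (limma adjusted p = 3.91e-09), and its difference of -0.08 in F2 did not pass.

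Of the 8 MuvB genes and their partners, 6 fell and 1 rose in WT, 2 fell and 1 rose in E1, and 3 fell in F2, with medians of -0.55, -0.01 and -0.10. MYBL2, which joins the MuvB core in dividing cells, fell by 1.58, 0.47 and 0.33. LIN9, a subunit of the core, fell by 0.51 in WT and had log2 changes of -0.07 and 0.03 in E1 and F2, and LIN54, its DNA-binding subunit, was at -0.05, 0.21 and -0.04 and passed in E1. Among 12 corepressors of pocket proteins, 8, 5 and 6 fell in WT, E1 and F2, with medians of -0.39, -0.13 and -0.14. The only ones that rose were SIN3B in WT, by 0.48, and HDAC2 in E1, by 0.19. The histone deacetylase HDAC1 fell by 0.46, 0.36 and 0.64, the histone demethylase KDM5A by 0.36 in WT and 0.24 in E1, and the methyltransferase SUV39H1 by 0.57 in WT, with log2 changes of 0.09 and 0.06 in E1 and F2.

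Of the 9 tested cyclins and kinases that act on pocket proteins, 4 rose and 4 fell in WT. CDK6, a cyclin D kinase, had 3.95 ± 1.22 normalized counts in WT DMSO and 2731 ± 102 with tazemetostat (SD, n = 3). In E1 it went from 2.78 ± 2.42 to 2834 ± 108 and in F2 from 2.58 ± 1.37 to 2849 ± 320. CCND1, its cyclin, rose in each line (1.05 in WT, 0.29 in E1, 0.55 in F2), while CDK4 fell by 0.68, 0.22 and 0.49. CCNA2, the cyclin of S phase, fell by 1.95, 0.25 and 0.38. CDK2 fell by 1.25 in WT and 0.33 in F2.

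Of 7 CDK inhibitors, 4 rose and 2 fell in WT, with a median of 0.82. CDKN1A (p21) rose by 0.82 in WT and 0.92 in F2, and its log2 change of 0.05 in E1 did not pass. In DMSO it was already higher in E1 than in WT, by 2.09 (limma adjusted p = 2.26e-13). CDKN2A rose by 1.74, 0.88 and 1.52, but its reads overlap those of neighbouring transcripts at its locus, and whether counting used the strand is not given in the sources used here. CDKN1B (p27) fell by 0.40, 0.53 and 0.36. Of 8 genes for turnover and dephosphorylation of pocket proteins, 4, 2 and 3 fell, among them SKP2, a ubiquitin ligase subunit, by 0.97, 0.38 and 0.60.

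Target genes of the family were described in the same way. All 20 G1/S E2F targets fell with tazemetostat in WT, 18 of them by at least 1 on the log2 scale, with a median of -1.40. In E1 11 fell and 1 rose, with a median of -0.27 (9 and 1 without E1 DMSO replicate 2), and in F2 16 fell, with a median of -0.38. All 20 G2/M genes of the DREAM complex fell in WT, with a median of -1.23, whereas in E1 4 fell and 3 rose, and in F2 7 fell and 3 rose, with medians of -0.09 and -0.10. Among all tested genes 29.4% fell in WT, 19.7% fell and 27.1% rose in E1, and 23.2% fell and 29.0% rose in F2. The 4 of 20 G2/M genes that fell in E1 are thus near the share of all genes. The response was higher than in WT for 18 of 20 G1/S and 20 of 20 G2/M genes in E1, and for 20 and 20 in F2, with medians of 1.23, 1.25, 1.07 and 1.14, against a median of 0.01 over all genes. Of all genes 17.2% had a higher response in E1 and 13.7% in F2. Without E1 DMSO replicate 2 the response was higher for 20 of 20 genes of both lists in E1. PCNA, the clamp of replicating DNA, fell by 1.46 in WT and 0.37 in F2, and CCNB1, the mitotic cyclin, by 1.04 in WT, with log2 changes of -0.09 and -0.11 in E1 and F2.

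**Figure D5:**
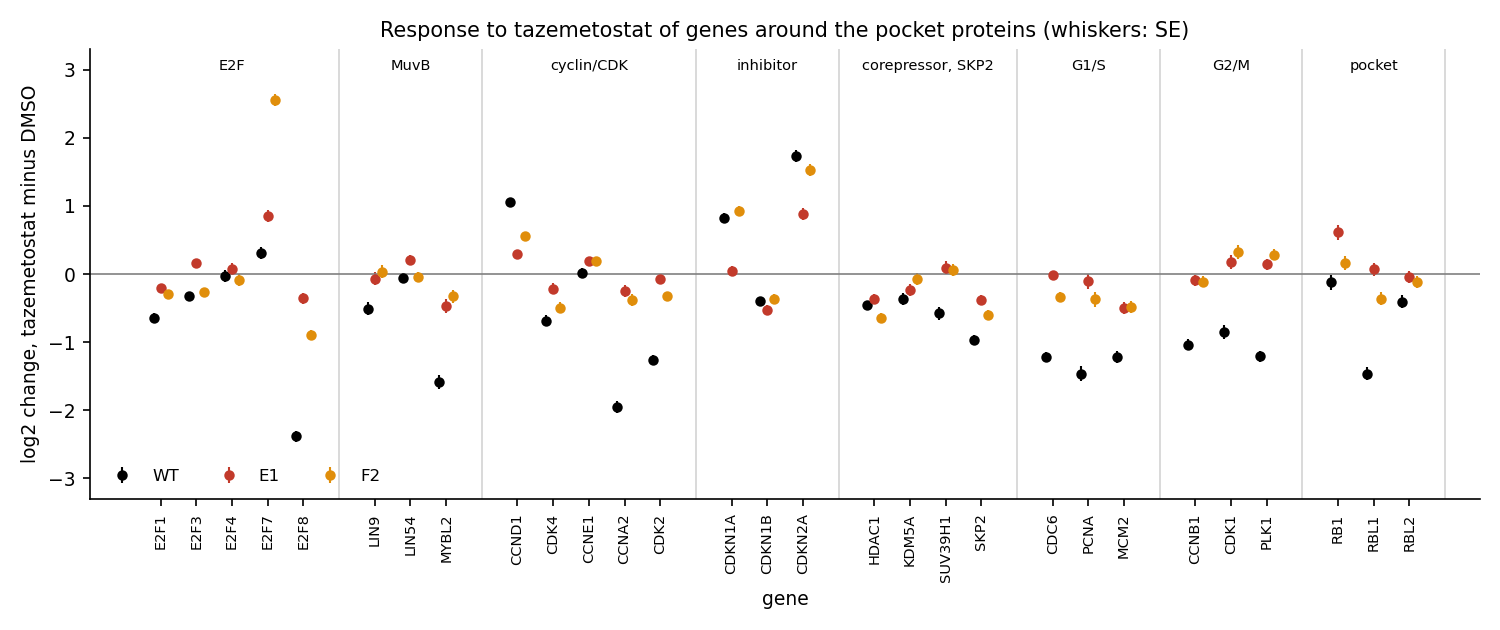
Log2 change with tazemetostat in WT, E1 and F2 for the named partners, regulators and targets of the pocket proteins and for RB1, RBL1 and RBL2; CDK6 is left out because its DMSO level is near 0. G1/S and G2/M target genes and RBL1 lie lowest in WT and nearer to 0 in both clones.

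In DMSO RBL1 was higher in F2 than in WT, a call that did not pass in 5 of the 6 fits that left out 1 library. In that comparison 8 of the 20 G1/S genes were higher and 1 lower in F2, and 13 of the 20 G2/M genes were higher. Their medians were 0.20 and 0.33, where 8.10% of all genes were higher and 12.1% lower. In E1, where RBL1 did not pass, 5 G1/S genes were higher and 3 lower, and 0 of the 20 G2/M genes passed the limma test, with medians of 0.04 and 0.002. Of all genes 11.4% were higher and 11.7% lower in that comparison, so that the 3 of 20 lower G1/S genes are near the share of all genes. At an unadjusted limma p under 0.05 there was 1 G2/M gene, and edgeR and DESeq2 called 0. Without E1 DMSO replicate 2, 4 G1/S genes were higher and 4 lower, and 2 G2/M genes were lower. Under tazemetostat all 20 G2/M genes were higher than in WT in both clones, with medians of 1.25 in E1 and 1.47 in F2. Of all genes 25.0% were higher in E1 and 25.1% in F2 under the drug. Among 8 listed neighbours of RBL1 on chromosome 20, 7 were tested, and 3 rose and 2 fell with tazemetostat in WT, with a median of 0.15. Of 6 neighbours of RBL2, 4 were tested, and 1 rose and 3 fell. Among all tested genes 34.8% rose and 29.4% fell with tazemetostat in WT, so that the counts for the neighbours of RBL1 are near those shares. AKTIP, which overlaps RBL2, rose by 0.44 in WT, opposite to RBL2.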

How the data were processed

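The authors deposited 1 table whose values are a normalized signal, that is, each library's gene counts after division by its own size factor. The submitters' processing notes name Trim Galore 0.4.4, STAR 2.6.0a, HTSeq, DESeq2 and hg19; the annotation and the strand setting are not given in the sources used here. Values multiplied by their library's size factor were whole reads (within 1e-06 of a whole number) for 100% of values. The count test of edgeR 4.0.16 on these reads called 10460 genes for tazemetostat in WT, against 10367 by limma. Depth bounds the precision of low genes; PCR copies were not told apart.

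Groups came from the sample titles. Tests used limma 3.58.1 in R 4.3.3 with a mean-variance trend on log2(value + 1), which understates changes of low genes, for genes with a mean of at least 10, in 1 fit of 6 group means over 18 libraries. A call is a Benjamini-Hochberg adjusted p under 0.05 over all tested genes. Response differences subtract a line's log2 change with tazemetostat from another line's. Single values were tested by exact permutation. Transcript lengths came from GENCODE v29, promoters and gene neighbours from RefSeq. Figures used matplotlib 3.10.9.

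Named genes were 30 fixed symbols plus, per member, the 5 genes of highest correlation. Others appear as counts of lists, apart from markers, neighbours and the list genes MDM2, SIN3B and HDAC2, named because they rose. The members and lists were chosen with earlier results of these data known. Replicate numbers are shared between groups. Same-numbered libraries' deviations correlated at 0.182, 0.108 and 0.375 between WT and F2 in DMSO, so the numbers were taken to pair these groups. They correlated at 0.164, 0.168 and 0.372 between WT tazemetostat and F2 DMSO, which meet only in a response difference. In the groups of the other comparisons not every pair was over 0.1. Alternatives were other pseudocounts, filters, scalings, a replicate block, only the groups compared, a fold limit, coding length, each library left out, edgeR and DESeq2 1.42.0 (Wald); centring by transcript length and list counts without E1 DMSO replicate 2 were chosen after seeing the data.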

Additional observations from a re-analysis of the deposited data

Results flagged for a closer look

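The limma test of the difference itself was run for all 3 members and each pair of the 3 lines, and found 5 unequal responses to tazemetostat. Such a difference was called for 35.4% of all genes between E1 and WT, 26.9% between F2 and WT and 14.8% between E1 and F2. The response of RBL1 was higher in E1 than in WT by 1.54, higher in F2 than in WT by 1.10, and higher in E1 than in F2 by 0.44. The response of RB1 was higher in E1 than in WT by 0.74, and that of RBL2 by 0.36. The differences of RBL1 between E1 and F2 and of RBL2 between E1 and WT did not pass without E1 DMSO replicate 2. Groups of 3 libraries are too small for a test of single outlying values.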

How the results depend on the processing

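Of 702 values of members under an alternative, 632 kept their direction and side of the threshold, 42 no longer passed, 23 came to pass and 5 turned; the causes were not tested. The fall of RBL1 in WT, its response differences from WT, its higher level in the clones under tazemetostat and the lower RB1 of both clones passed under all alternatives run. Where few reads set the level, as for CDK6 in DMSO and LIN28B in E1 DMSO, no fold is given.

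Requiring a log2 change of at least 1 ended the calls of RBL2 with tazemetostat in WT (-0.40), RB1 in E1 (0.61) and RBL1 in F2 (-0.36), of RBL1 in F2 against WT in DMSO (0.30), RBL2 in F2 against WT under tazemetostat (0.36), RB1, RBL1 and RBL2 in E1 against F2 in DMSO (-0.39, -0.52 and -0.26), and of the response differences of RB1 and RBL2 between E1 and WT (0.74 and 0.36) and of RBL1 between E1 and F2 (0.44). Called genes then numbered 3436, 2434 and 2745 with tazemetostat in WT, E1 and F2 (10367, 7554 and 8438 without the limit), 814 and 481 for E1 and F2 against WT in DMSO (3740 and 3260), 1833 and 1984 under tazemetostat (8373 and 8573), 1222 and 1101 for E1 against F2 in DMSO and tazemetostat (5997 and 5575), and 1616, 1208 and 938 for the response differences E1 to WT, F2 to WT and E1 to F2 (5720, 4344 and 2384).

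Scaling to the same total moved the median of all genes with tazemetostat in WT from 0.03 to -0.12, in F2 against WT under tazemetostat from -0.002 to 0.14 and in their response difference from 0.01 to 0.13. It gave -0.27 for RB1 with tazemetostat in WT, -0.24 for RBL1 in E1 against WT in DMSO, 0.23 for RBL2 in E1 against WT and -0.28 in E1 against F2 under tazemetostat, and 0.41 for the response differences of RB1 and RBL2 between F2 and WT, all of which then passed. RB1 in E1 against F2 under tazemetostat turned to -0.025.

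With only the compared groups in the fit, RB1 with tazemetostat in F2 (0.16), RBL2 in E1 against WT (0.16) and against F2 (-0.19) under tazemetostat and the response differences of RB1 and RBL2 between F2 and WT (0.28 and 0.29) came to pass. RB1 and RBL2 in E1 against F2 in DMSO (-0.39 and -0.26), RBL2 between the responses of E1 and WT (0.36) and RBL1 between those of E1 and F2 (0.44) no longer passed. Called genes fell to 1601 for E1 against WT and 3035 for E1 against F2 in DMSO. Without a filter, RBL1 in F2 against WT in DMSO (0.30), RBL2 in E1 against F2 in DMSO (-0.26) and the response differences of RBL2 (0.36, E1 to WT) and RBL1 (0.44, E1 to F2) no longer passed. The response difference of RB1 between E1 and F2 passed at a pseudocount of 5 (0.45), with TMM scaling (0.45), edgeR (0.44), DESeq2 (0.43) and centring by transcript length (0.44). Length centring, chosen after seeing the data, also turned RBL1 with tazemetostat in E1 to -0.035 and made RBL2 pass in E1 against WT (0.20) and F2 (-0.21) under tazemetostat and between the responses of F2 and WT (0.32).

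The replicate block kept the member calls in F2 against WT in DMSO, where the numbers were taken to pair the libraries and 5 of 6 correlated best with their own number. WT tazemetostat and F2 DMSO, which are not compared directly but enter the response difference of F2 and WT, had a mean correlation of 0.235, with 6 of 6 best with their own number, and the block kept the calls of that difference. In the other direct comparisons the libraries share only a number, with mean correlations of -0.09 to 0.15 and 0 to 3 of 6 best with their own number. With the block the RBL1 response difference between E1 and F2 (0.44) sat at a limma adjusted p of 0.05, and the exact tests over the 3 lines no longer passed for RB1 (0.22), RBL1 (-0.59), RBL2 (-0.19) and RBL1/RBL2 (-0.40). The block changed no other call of a member.

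Per coding length the shares were 40.8%, 49.1%, 15.8%, 22.5%, 16.4% and 19.9% for RB1 in WT DMSO, WT tazemetostat, E1 DMSO, E1 tazemetostat, F2 DMSO and F2 tazemetostat. In the same order they were 15.2%, 7.21%, 21.3%, 20.8%, 24.1% and 20.3% for RBL1 and 44.0%, 43.7%, 62.9%, 56.7%, 59.5% and 59.8% for RBL2. RB1 then exceeded RBL2 in WT tazemetostat, and RBL1 exceeded RB1 in F2 tazemetostat, both opposite to the order per transcript length.

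Leaving out single libraries, calls or signs changed for RBL1 and RBL2 with tazemetostat in E1 (-0.045 to 0.16 and -0.18 to 0.084), RBL1 and RBL2 in E1 against WT in DMSO (-0.31 to -0.11 and -0.32 to -0.063), RBL1 in F2 against WT in DMSO (0.25 to 0.34), RBL2 in E1 against F2 in DMSO (-0.39 to -0.13), RBL2 between the responses of E1 and WT (0.23 to 0.49), RB1, RBL1 and RBL2 between those of E1 and F2 (0.28 to 0.60, 0.32 to 0.53 and -0.064 to 0.20), and RB1 over the 3 lines (0.16 to 0.27). Called genes ran from 2141, without WT DMSO replicate 2, to 3028 for F2 against WT in DMSO, and from 1839 to 3865, without E1 DMSO replicate 3, for the response difference of E1 and F2.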
